A study of Mus musculus with 6 samples.

Results

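Long-range 4C contacts of the Ikzf1 promoter region were examined over the stretch of chromosome 11 that begins 1.5 Mb above the bait and ends at 40000000 (mm9), a stretch that includes the alpha-globin genes. The members are the DpnII fragments whose listed midpoint lies from 13083521 to 40000000, which makes 66636 of the 295446 chromosome 11 fragments in this library and of 1928618 fragment entries in all 6 libraries of the study. The rule uses position only, but the stretch and its globin bin were picked with earlier results of these data known. The study made 4C libraries from 3 baits, namely an enhancer cluster of Sox2 in ES cells before and after in vitro differentiation, Satb1 in ES cells and DP thymocytes, and Ikzf1 in DP thymocytes. The Ikzf1 library came from thymus of 4 week old c57/Bl6 mice, from which CD4+/CD8+ (double-positive, DP) cells were sorted by FACS. Cells were fixed with 2% formaldehyde for 10 min, nuclei were permeabilized with 0.4% SDS according to the labels, whereas the study's methods give a higher concentration and temperature for DP cells, and DNA was cut with DpnII and then Csp6I. No treatment or modified allele is given. There is 1 Ikzf1 library, so no value below has a replicate and no difference was tested. The purity of the sorted cells cannot be checked in a DNA library of this kind.

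In 4C, fragments that lie close together in the nucleus are ligated, and the sequences joined to a chosen bait are amplified and counted. A fragment with reads is taken here as one that was caught beside the bait in at least some cells. Far from the bait few fragments have a read, and contacts are then read from the share of fragments that were caught. Ikzf1 encodes Ikaros, a zinc finger transcription factor of lymphocyte development. The alpha-globin genes Hba-a1 and Hba-a2 encode a chain of adult haemoglobin and Hba-x its embryonic counterpart. They are used in red cell precursors, and some of their enhancers lie within introns of the neighbouring gene Nprl3, which encodes a subunit of the GATOR1 complex.

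The fragment ends that the reads must match carry part of the result at the globin genes, so they are shown first (mm9, 5′ to 3′, with the DpnII sites in capitals). The longest printed fragment covers part of an intron and of the coding sequence of Hba-a1 at chr11:32183836-32184114, plus strand. The fragment of Hba-a2 at chr11:32196653-32196931, plus strand, has the identical 279 bases, sites included, so their reads cannot be told apart:
Hba-a1 and Hba-a2: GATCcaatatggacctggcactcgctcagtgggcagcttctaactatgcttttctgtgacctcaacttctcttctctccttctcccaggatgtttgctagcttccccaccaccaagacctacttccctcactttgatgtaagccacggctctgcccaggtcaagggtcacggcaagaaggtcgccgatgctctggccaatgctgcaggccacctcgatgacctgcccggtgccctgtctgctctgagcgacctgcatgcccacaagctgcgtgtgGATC

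By contrast, the detected fragment of Hba-x, in its coding sequence at chr11:32177659-32177759, plus strand, has ends that occur 1 time each among the 13180149 DpnII ends of the genome, and it held 46 reads:
Hba-x: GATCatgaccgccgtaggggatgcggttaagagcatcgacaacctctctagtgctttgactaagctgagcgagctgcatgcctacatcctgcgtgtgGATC

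The fragments with most reads in the 32 to 33 Mb bin with ends in 1 copy, in Fbxw11, and in Rhbdf1 are short and lie in introns, at chr11:32571254-32571323 and chr11:32117608-32117671, both plus strand. They held 2945 reads and 1043 reads:
Fbxw11: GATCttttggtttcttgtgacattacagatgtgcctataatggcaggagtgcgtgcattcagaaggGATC
Rhbdf1: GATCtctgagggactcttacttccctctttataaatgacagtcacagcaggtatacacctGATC

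The most read fragment of Nprl3 held 986 reads. The first line is its lower end at chr11:32153555-32153579, plus strand, a sequence with 8387 copies among DpnII ends. The second line is its upper end at chr11:32153913-32153937, minus strand, which has 1 copy:
Nprl3 lower end: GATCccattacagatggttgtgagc
Nprl3 upper end: GATCcatctccaaagcgggaagctc

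The remaining ends belong to the fragments with most reads in the other strongly contacted places described below, all with 1 copy in the genome. They are the plus strand ends of a fragment in an intron of Commd1 at chr11:22787370-22787394 (2167 reads), of one in no protein-coding gene at chr11:20069561-20069585 (1396 reads), and of one in an intron of Sh3pxd2b at chr11:32316152-32316176 (1369 reads):
Commd1: GATCaaaccagaggaggtgggctca
no gene, 20 Mb: GATCttgaacatcacaggacttcag
Sh3pxd2b: GATCcatttttaactctaaacgtga

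The extent of contact over the whole stretch was measured first. Of the 66636 members 1131 had at least 1 read, which is 1.70% (95% Wilson interval 1.60 to 1.80%). Such intervals cover counting error only, since PCR copies of a ligation cannot be told from separate ligations. The library held 2314166 reads, of which the members took 169672, or 7.33%, while 73.7% lay within 1.5 Mb of the bait. A detected member had a median of 26 reads (quartiles 6 and 178, highest 2945), 117 had a lone read, and the 113 with most reads held 56.0% of the members' reads. Because the reads were this uneven, contact is given below as the share of fragments detected rather than as a sum of reads.

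The members stood slightly above the rest of the chromosome and well below its lower end. Their 1.70% compares with 1.43% (1.38 to 1.48%) of the 221075 other chromosome 11 fragments at least 1.5 Mb from the bait, 1.26% (1.21 to 1.31%) of those beyond 40 Mb, and 3.37% (3.11 to 3.64%) of those below the bait. At the same distance from their own baits, on other chromosomes for other genes and at other depths, 1.05% of fragments were detected with Satb1 in DP cells, 3.97% with Satb1 in ES cells, 1.41% and 2.22% with the Sox2 enhancer cluster in ES cells, and 2.81% after differentiation. In steps of 1 Mb the Ikzf1 library ranged from 0.427% to 6.50%, a 15.2-fold range. The ranges were 7.02-fold for Satb1 in DP cells, 2.69-fold for Satb1 in ES cells, 19.9-fold and 15.7-fold for the 2 ES libraries of the Sox2 enhancer cluster, and 7.05-fold after differentiation. Several-fold ranges between steps thus appeared at each bait.

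Whether a fragment was detected also varied with the fragment itself. Of the 45773 members whose ends are both in 1 copy 2.02% were detected, against 1.63% of the 10004 with 1 such end and 0.387% of the 10859 with none. Members with a Csp6I site inside reached 1.83% (1.69 to 1.99%) and those without 1.58% (1.46 to 1.72%), with overlapping intervals. By length the share was 0.918% under 40 bp, 1.46% to 200 bp, 1.93% to 1000 bp and 2.06% above, with overlapping intervals for the last pair. Of the detected members 48, or 4.24%, had a detected next neighbour, where 1.70% of all members were detected.

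To remove the effect of distance, detection was regressed on distance over all chromosome 11 fragments at least 1.5 Mb from the bait, and each bin was set against the mean expected share of its fragments. The fitted curve did not fall throughout. Across the members it reached its top of 2.25% at 7.78 Mb from the bait, from its lowest value of 1.57% at the near edge, and came down slowly beyond that. The members had 1131 detected fragments where the curve gave 1373, a ratio of 0.824. At distances that the lower end of the chromosome also reaches, the curve pools both sides of the bait. Of the fragments below the bait 3.37% were detected. Ratios of members near the bait are therefore set against that side as well. A bin was called contacted if its observed share was at least 1.3 times the expected share with the whole Wilson interval above it, and low if it was at most 0.8 times with the interval wholly below.

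A minority of bins was called contacted. Of the 54 bins of 0.5 Mb 10 were contacted (18.5%), 31 were low (57.4%) and 13 were neither. Over all 232 such bins of the chromosome, the members' included, 18.5% were contacted and 26.7% were low, so the number of contacted bins was that of the chromosome as a whole, and it is their position that the members' data describe. Because the calls rest on the detected share, an excess in contacted bins and a deficit in low bins are built in. Their sizes are given as a description. The 10 contacted bins held 18.1% of the members, 48.1% of the detected fragments and 47.3% of the reads. The 31 low bins held 58.2% of the members, 23.1% of the detected fragments and 21.4% of the reads. In bins of 1 Mb, 7 of 27 were contacted (25.9%) and 15 were low (55.6%), where the chromosome as a whole had 25.0% and 28.4%. The contacted ones began at 20, 22, 23, 31, 32, 33 and 34 Mb.

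**Figure D1:**
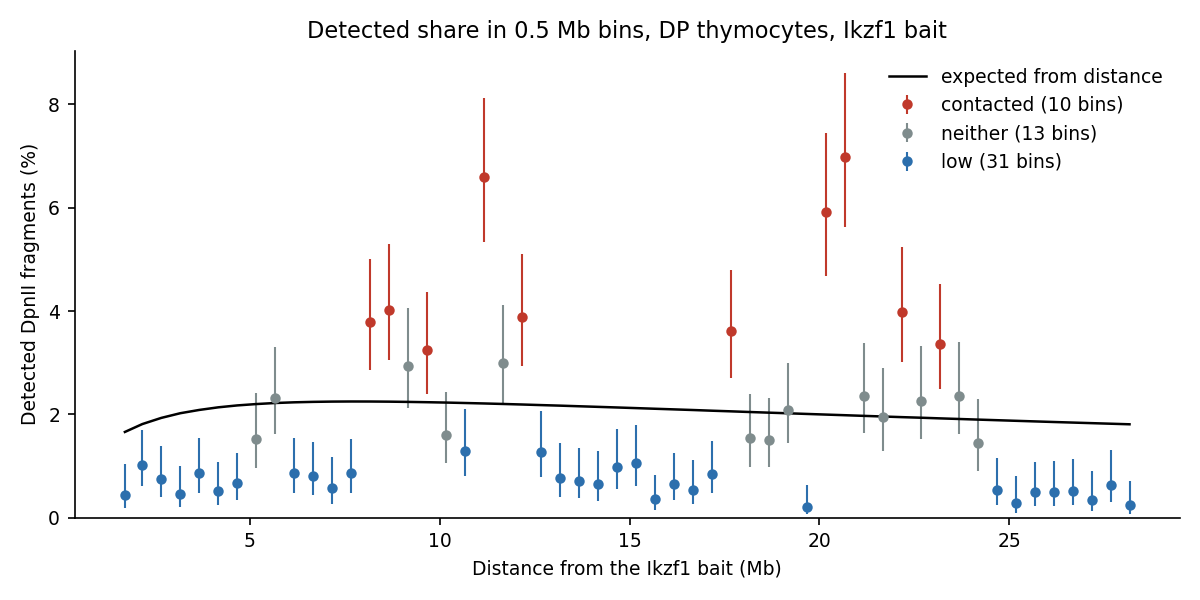
Share of DpnII fragments with at least 1 read (y-axis, percent) in the 54 bins of 0.5 Mb against distance from the Ikzf1 bait (x-axis, Mb), with 95% Wilson intervals as bars, colours for the 3 calls and a line for the share expected from distance. The 10 contacted bins lie in groups around 8 to 12 Mb and 18 to 23 Mb, with the highest share, 6.98%, next to 5.92%.

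The contacted bins fell into 2 zones with an isolated bin between them. From 19.5 to 24 Mb 5 of 9 bins were contacted, from 31.5 to 35 Mb 4 of 7, and the remaining one began at 29 Mb. In the main setting 2 runs of neighbouring contacted bins arose, from 19.5 to 20.5 Mb and from 31.5 to 32.5 Mb, a number that changed with the processing. Detection was related between neighbouring bins, with a correlation of their ratios of 0.456 (Pearson) and 0.528 (Spearman) over 53 pairs, which share a library and a fitted curve and are given as a description.

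The run from 31.5 to 32.5 Mb, about 20.4 Mb from the bait at its middle, was the stronger. It had 146 detected of 2264 fragments, 6.45% (5.51 to 7.54%) where 1.99% was expected, a ratio of 3.24 (2.77 to 3.78). Its lower bin had 67 of 1132 fragments detected and a ratio of 2.96, and its upper bin, with the globin genes, 79 of 1132 and 3.51, the highest of the 54 bins. The run is gene-rich, with 18 protein-coding gene starts and a GC content of 46.1%. Reads were spread over many of its fragments, since the most read one held 8.31% of the run's 16478 reads. The lower bin holds Cpeb4, which encodes a regulator of messenger RNA polyadenylation in the cytoplasm, Nsg2, for a vesicle protein of neurons, and Bod1, for a protein of chromosome alignment in mitosis. Measured as the gene with 100 kb on each side, Cpeb4 reached a ratio of 3.57 with 42 of 589 fragments detected, Nsg2 3.75 with 44 of 589, and Bod1, at the lower edge, 1.79 with 18 of 502.

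The lower edge of this run was also the sharpest step between neighbouring bins of the stretch. The bin from 31 to 31.5 Mb had 3 of 1388 fragments detected, 0.216% (0.0735 to 0.634%), the lowest ratio of all at 0.107, against 5.92% (4.69 to 7.45%) in the next bin. It holds Stc2, for the secreted glycoprotein stanniocalcin 2, and most of the longest stretch without a detected member, 363.9 kb from 31108934 to 31472798 with 1006 fragments. For that stretch the curve gave 20.2 detected fragments, and 775 of its fragments have an end in 1 copy. Its count of 0 was fixed by picking the longest gap, so the limit of 0.298% for 0 of 1006 is nominal.

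The run from 19.5 to 20.5 Mb was weaker, with 94 of 2407 fragments detected, 3.91% (3.20 to 4.76%) and a ratio of 1.74 (1.42 to 2.11). It holds 7 gene starts. Spred2, which encodes an inhibitor of Ras signalling, had 40 of 715 fragments detected in its window and a ratio of 2.49 (1.84 to 3.34). Actr2, for a subunit of the Arp2/3 complex that nucleates actin filaments, had 32 of 552 and 2.58 (1.84 to 3.59). Sertad2, for a transcriptional coregulator, and Rab1, for a small GTPase of transport between endoplasmic reticulum and Golgi, had 2.25 and 1.85. The window of Slc1a4, for a transporter of neutral amino acids, was neither contacted nor low at 1.44 (19 of 585). The intervals of these genes overlap, with 0.929 to 2.23 for Slc1a4.

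The second highest bin stood alone. From 22.5 to 23 Mb, 81 of 1229 fragments were detected, 6.59% (5.33 to 8.12%) and a ratio of 2.98, against 16 of 1233 in the bin below and 37 of 1231 in the bin above. This bin also held the 100 kb with the highest share of the whole stretch, from 22.7 to 22.8 Mb, where 25 of 236 fragments were detected (10.6%, ratio 4.79). The genes there are B3gnt2, for a glycosyltransferase that extends poly-N-acetyllactosamine chains, and Commd1, for a protein of copper homeostasis and NF-kappa-B turnover, whose annotated transcripts overlap. Their windows, which share most fragments, had ratios of 4.48 (54 of 545) and 3.51 (65 of 837), and within the body of Commd1 34 of 344 fragments were detected. Cct4, for a subunit of the cytosolic chaperonin, had 2.65 and Zrsr1, for a relative of a splicing factor subunit, 2.96. B3gnt2 had the highest ratio of all 118 protein-coding genes that lie wholly in the stretch, above Snrnp25 near the globin genes at 4.43, with intervals that overlap.

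The 5 other contacted bins, outside the runs and this bin, had ratios between 1.45 and 2.05. The bin from 33.5 to 34 Mb was the highest of them at 2.05 (48 of 1203), and holds Lcp2, for the adaptor protein SLP-76 of T cell receptor signalling, and Kcnip1, for a potassium channel regulator. The bin from 23.5 Mb, with Rel, for the NF-kappa-B protein c-Rel, had 1.77 (48 of 1236), that from 29 Mb, with Ccdc88a, for an actin-binding protein, and Pnpt1, for a mitochondrial exonuclease, 1.75 (45 of 1246), and that from 34.5 Mb, with Dock2, for a Rac activator of lymphocyte migration, also 1.75 (41 of 1218). The bin from 21 Mb, with Vps54 and Peli1, was the lowest contacted one at 1.45 (41 of 1262).

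The 1 Mb bin from 32 to 33 Mb, with the globin genes, was examined in finer steps. It had 107 of 2322 fragments detected, 4.61% (3.83 to 5.54%) where 1.98% was expected, and a ratio of 2.33 (1.93 to 2.80). It ranked first of the 27 bins of 1 Mb, before the bin from 22 Mb with 1.78 (1.46 to 2.16). The contact was unequal within it. From 32 to 32.5 Mb 79 of 1132 fragments were detected (6.98%, 5.64 to 8.61%), and from 32.5 to 33 Mb 28 of 1190 (2.35%, 1.63 to 3.38%), a ratio of 1.19 that was neither contacted nor low. Reads gave another picture, with 9655 in the lower part and 9743 in the upper, of which the fragment in Fbxw11 printed above held 30.2%. The densest 100 kb, from 32.1 to 32.2 Mb, had 24 of 247 fragments detected (9.72%, ratio 4.89), and 4 of the 10 densest intervals of 100 kb in the whole stretch of 269 lay between 31 and 33 Mb.

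Genes on the Nprl3 side of the globin cluster carried most of the detected fragments near it. Nprl3 itself (32125628 to 32167707, minus strand) had 13 of the 102 fragments that overlap it detected, with 2285 reads by midpoint and up to 986 on a fragment, where the curve gave 2.03. Rhbdf1, for the inactive rhomboid protein iRhom1, had 5 of 37 detected with 1485 reads, of which 1043 lay on the fragment printed above. Il9r, for the interleukin 9 receptor, had 3 of 28 with 53 reads, and Mpg, for a DNA glycosylase of base excision repair, 1 of 14 with 10 reads, on a fragment that Nprl3 also covers. Snrnp25, for a protein of the minor spliceosome, had 0 of 10. On the other side, Sh3pxd2b, for an adaptor protein of podosomes, had 9 of 169 with 1885 reads. Farther up, Ubtd2 had 12 detected fragments of 146 by midpoint, Stk10, for a kinase of lymphocytes, 10 of 201, and Fbxw11, for a substrate receptor of an SCF ubiquitin ligase, 12 of 234. Of the 107 detected fragments of the bin 41 lay in no protein-coding gene.

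The adult globin genes themselves had no detected fragment, and this cannot be read as an absence of contact. Detected fragments reached Hba-x, with the 46 reads given above, and ended 1.13 kb before the start of Hba-a1 on a fragment with 1 read. The next detected fragment lay 23.4 kb past that start and had 3 reads. Between them 58 neighbouring fragments over 24.3 kb (32182443 to 32206756) held Hba-a1, Hbq1b, Hba-a2 and Hbq1a and were all at 0. The curve gave 1.15 detected fragments there and the mean share of the 1 Mb bin 2.67. The ends of this gap were set by detected fragments, so the limit of 5.17% for 0 of 58 is nominal. In the same bin 9 of the 106 gaps between detected fragments had at least 58 fragments, with a median of 11 and a largest of 155. Of the 58 fragments 33 have both ends in 1 copy, 11 have 1 such end and 14 have none. All 5 fragments that overlap Hba-a1 and all 5 that overlap Hba-a2 are among the last, and each of the 10 end sequences of Hba-a1 occurs again at Hba-a2. Hbq1b and Hbq1a, theta-globin genes, have 3 fragments each, of which 2 in each have no end in 1 copy. The 7 fragments of Hba-x all have both ends in 1 copy. Values for Hba-a1 and Hba-a2 below therefore rest on the fragments around them.

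**Figure D2:**
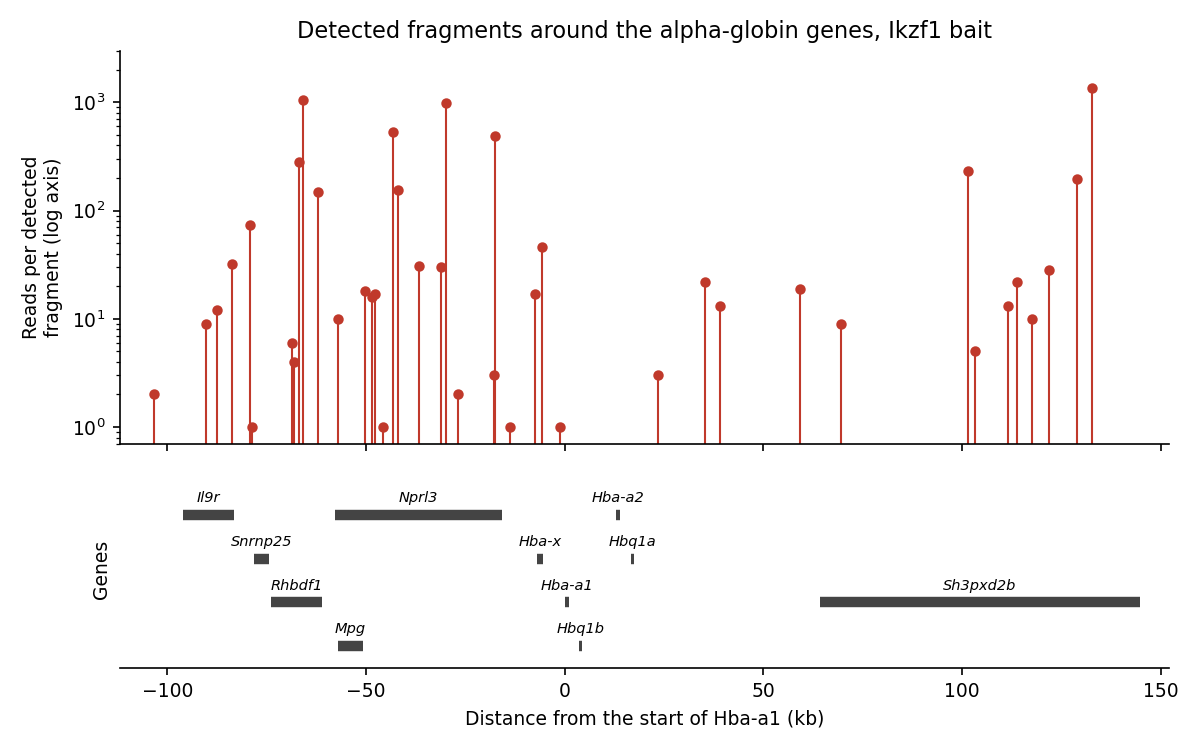
Reads per detected fragment (y-axis, log scale) against distance from the start of Hba-a1 (x-axis, kb), with 1 stem per detected fragment and the genes of the alpha-globin neighbourhood as bars below. Stems are dense over Rhbdf1 and Nprl3, with up to 1043 reads, and none stands over Hba-a1, Hbq1b, Hba-a2 or Hbq1a, in the gap of 24.3 kb.

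Gene windows were then compared by group. The call rule applied to the 118 protein-coding genes wholly inside the stretch, each with 100 kb on each side, gave 51.7% contacted and 13.6% low, with a median ratio of 1.59. Windows of neighbouring genes share fragments, so genes are not independent and no group was tested. All 11 genes of the alpha-globin neighbourhood, from Il9r to Sh3pxd2b, were contacted, with a median of 3.69 and a range of 2.82 to 4.43. Their windows together comprise only 1009 fragments, 69 of them detected (6.84%), so they stand for a single place on the chromosome. Of these, Snrnp25 had 4.43 (3.33 to 5.85), Nprl3 3.87 (2.92 to 5.10), Hba-a2 3.53 (2.54 to 4.88), Hba-a1 3.41 (2.44 to 4.74) and Hba-x 3.46 (2.48 to 4.78), all with overlapping intervals.

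Among 8 genes of blood cells 6 were contacted and none was low, with a median of 1.96. Stk10 had 37 of 645 fragments detected and a ratio of 2.90 (2.12 to 3.94), Lcp2 35 of 623 and 2.89 (2.09 to 3.97), Spred2 2.49, Rel 26 of 580 and 2.04 (1.40 to 2.96), Peli1, for a ubiquitin ligase of immune signalling, 27 of 640 and 1.88, and Dock2 45 of 1466 and 1.59. The 2 that did not pass were Plek, for the platelet and leukocyte protein pleckstrin, with 15 of 636 and 1.07 (0.649 to 1.74), and Bcl11a, for a zinc finger repressor of embryonic globin genes and a factor of lymphocytes, with 11 of 622 and 0.808 (0.453 to 1.43). Stk10, Lcp2 and Dock2 lie in the same zone of contacted bins as the globin genes.

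Of 13 genes used by most cells 9 were contacted, none was low, and the median was 1.62. Actr2 led with 2.58, followed by Pno1, for a ribosome assembly factor, with 2.22 (23 of 467) and Vps54, for a subunit of a tethering complex at the Golgi, with 2.16 (32 of 663). Those not called were Npm1, for nucleophosmin, at 1.40, Psme4, for a proteasome activator, at 1.27, Xpo1, for the export receptor exportin 1, at 1.21, and Mdh1, for cytosolic malate dehydrogenase, at 0.736. Sptbn1, for a spectrin subunit, also on this list, is annotated under its older symbol Spnb2 and so was not in the count. Its window had 20 of 923 fragments detected and a ratio of 1.06 (0.690 to 1.63), neither contacted nor low.

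Of 11 developmental or tissue-restricted genes 2 were contacted and 3 were low, with a median of 0.902. Kcnip1 had 49 of 1355 fragments detected and a ratio of 1.85 (1.41 to 2.44) and Slit3, for a guidance ligand, 46 of 1792 and 1.34 (1.01 to 1.78). Of the 49 in the Kcnip1 window 29 also lie in the window of Lcp2, counted with the blood cell genes, and the 967 fragments outside that window had 20 detected and a ratio of 1.06 (0.688 to 1.63). The low ones were Meis1, for a homeobox protein, with 4 of 783 and 0.227 (0.0884 to 0.580), Odz2, for a teneurin, with 20 of 3206 and 0.331 (0.214 to 0.510), and Otx1, for another homeobox protein, with 5 of 523 and 0.429 (0.184 to 0.995). Egfr had 0.750, Gabrp 0.668, Foxi1 0.985, Fgf18 1.40 and Tlx3, a homeobox gene, 1.45, none of them called. With each fragment counted 1 time within a group, the 4 groups in the order given had ratios of 3.44, 1.92, 1.60 and 0.859. Fragments shared between groups still count in each of them. Besides Kcnip1 and Lcp2, many other windows overlap across groups. Among them are those of Spred2 with Actr2 and Rab1, of Peli1 with Vps54 and Ugp2, and of Stk10 with Sh3pxd2b. Further overlaps are those of Npm1 with Fgf18 and Tlx3, of Plek with Egfr and Pno1, and of Foxi1 with Lcp2 and Dock2. The groups are therefore not separate sets of fragments.

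**Figure D3:**
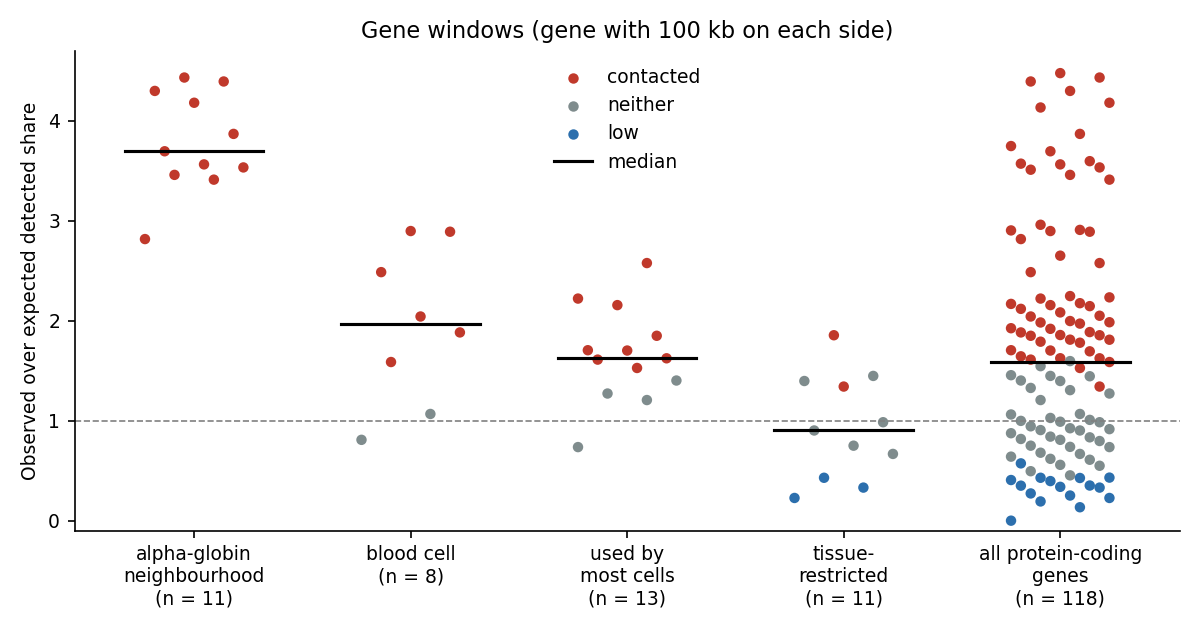
Observed over expected detected share (y-axis) of gene windows, with 1 point per gene, the 4 gene groups from left to right, all 118 protein-coding genes at the far right, bars at the medians and a dashed line at 1. The medians are 3.69, 1.96, 1.62, 0.902 and 1.59, and points of neighbouring genes share fragments.

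Most low bins formed 4 runs. Those from 22 to 22.5 Mb (ratio 0.584) and from 31 to 31.5 Mb (ratio 0.107) stood outside them. From 36 to 40 Mb 41 of 9214 fragments were detected, 0.445% (0.328 to 0.603%) and a ratio of 0.241 (0.177 to 0.326), over 4 Mb with 1 gene start, that of Odz2. The stretch from 24 to 29 Mb had 100 of 12811 fragments detected (0.781%, ratio 0.367) with 8 gene starts, among them Vrk2 and Fancl. From 17.5 to 19.5 Mb, with Meis1, 39 of 5031 were detected (ratio 0.345), and from the near edge to 16.5 Mb 62 of 9082 (ratio 0.344) with 2 gene starts. In low bins the few reads often sat on a fragment or so. From 39.5 to 40 Mb 3 of 1238 fragments were detected, and 1 of them held 381 of the 385 reads.

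The ends of the stretch lay in low contact on both sides of each limit. The first 0.5 Mb inside had 0.456% detected and the 0.5 Mb just below it 0.820%, and the last 0.5 Mb inside had 0.242% and the 0.5 Mb just above it 0.531%, with overlapping intervals in each pair. The near edge was thus low although it is closest to the bait.

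Gene content ran along with contact. Of the 23 bins of 0.5 Mb without a gene start 22 were low and none was contacted, and 0.725% of their fragments were detected (0.632 to 0.830%). The exception, from 35 Mb within the body of Slit3, had a ratio of 1.23. Bins with 1 to 3 gene starts had 1.66% (3 contacted and 8 low of 16), and bins with 4 or more 3.24% (7 contacted and 1 low of 15). The low one of these, from 26 Mb, has 5 gene starts, Vrk2 and Fancl among them, and a ratio of 0.461. Its starts include separate entries of the same gene symbol, 5730522E02Rik, and the short gene model Gm6899. Over the 54 bins the ratio correlated with the number of gene starts (Pearson 0.745, Spearman 0.702), with GC content (0.702 and 0.693) and with the share of fragments that have an end in 1 copy (0.506 and 0.453). These are descriptions over bins of a single library, and the parts of gene starts and GC content in them were not separated. Among fragments with an end in 1 copy alone the Spearman values were 0.723 with gene starts and 0.692 with GC content. With fragment features in the expected share they were 0.713 with gene starts and 0.614 with GC content. Contacted bins had a median GC content of 44.5% and a median of 92.8% of fragments with an end in 1 copy, against 38.5% and 80.0% in low bins.

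**Figure D4:**
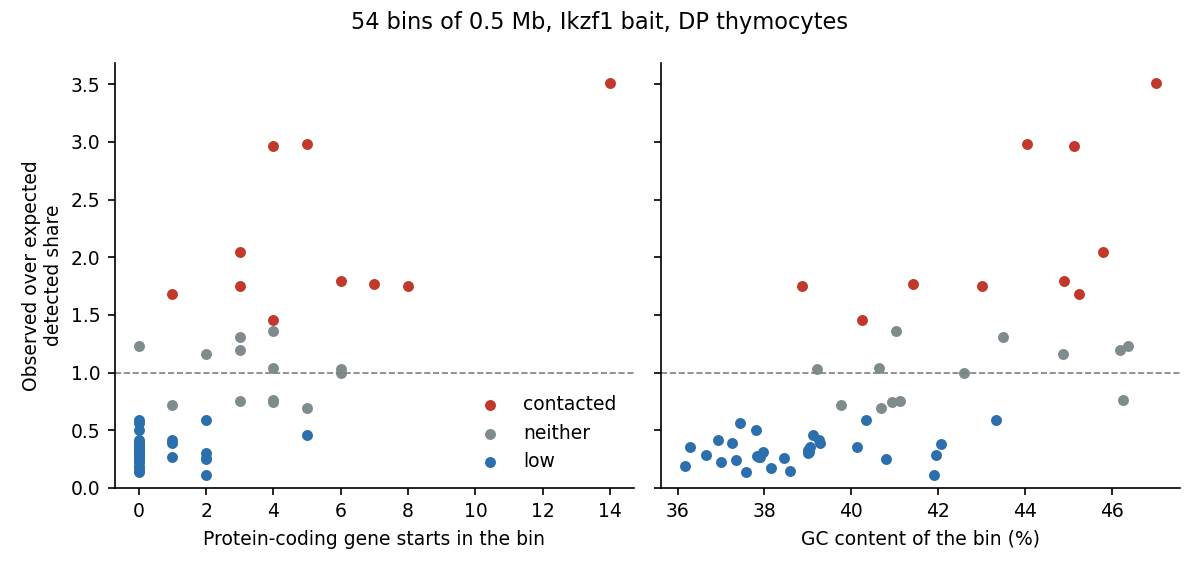
Observed over expected detected share (y-axis) of the 54 bins of 0.5 Mb against protein-coding gene starts per bin (left) and GC content in percent (right), coloured by call, with a dashed line at 1. The bin with 14 gene starts has the highest ratio, 3.51, and bins without a gene start lie below 1 with 1 exception at 1.23.

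Over the stretch as a whole, fragments near gene starts were detected more often. Of the 4641 members under 10 kb from the nearest gene start 4.52% were detected (3.96 to 5.16%), against 2.45% of those at 10 kb to 100 kb and 0.802% of those farther away. The same order held over the contacted bins pooled (7.48, 4.22 and 2.41%) and over the other bins pooled (2.38, 1.57 and 0.729%), so differences between gene-rich and gene-poor bins remain in these shares. It also held among fragments with an end in 1 copy (4.95, 2.79 and 0.912%). Fragments within protein-coding genes had 2.61% and those outside 1.28%.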

How the data were processed

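The deposited file held raw read counts per DpnII fragment of chromosome 11. To make these counts, the authors removed the bait sequence with Sabre (2 mismatches allowed), leaving 25 nt, aligned them by Bowtie to mm9 and assigned them to fragments with coord2frag. The processing notes of the submitters give version 1.0.0 for Bowtie and list bcl2fastq. Their guide leaves out fragments with over 2% of reads. Whether this was done here is unclear, as 1 fragment holds 5.37%. Nothing was normalized or deduplicated, and reads with several matches may have been handled in a way not given in the sources used here.

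All listed midpoints matched mm9 DpnII fragments, and genes are protein-coding GENCODE vM1 models. That annotation holds Sptbn1 and Tenm2 under the older symbols Spnb2 and Odz2. Mat2b was not found wholly within the region. Python 3.11.15, statsmodels 0.14.6 and scikit-learn 1.9.0 were used. Expected shares came from a logistic regression of detection on log10 distance and its square, checked on simulated data. An end counts as in 1 copy if its first 25 bases occur 1 time among the DpnII ends of the genome.

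Named are 4 gene lists and up to 5 genes per bin with the longest overlap in runs and in the 5 highest and 5 lowest bins. Fbxw11, Pnpt1, Vrk2 and Fancl fall outside this rule and were chosen after their values were seen. Members, lists and bins were chosen with earlier results of these data known. Alternatives changed the read minimum, curve, fragment filter, bin position and ratio minimum.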

Additional observations from a re-analysis of the deposited data

How the results depend on the processing

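The 32 to 33 Mb bin ranked first of the 1 Mb bins in each of the 11 alternatives that keep the bins and can change their order. Its ratio stayed between 2.06 and 2.71 in 11 of its 13 alternatives, among them odd fragments alone (2.26), even fragments alone (2.40) and capped reads in place of detection (2.25). It was 1.93 when the expected share also used the fragments' unique ends, Csp6I site, length and GC content, and 3.24 with bins shifted by 0.5 Mb, where the bin runs from 31.5 to 32.5 Mb. The detected share of the members was 1.52% at 2 reads or more, 1.18% at 10 reads or more, 1.95% among fragments with an end in 1 copy and 1.83% among those with a Csp6I site. The number of runs of contacted bins was not stable. Against 2 in the main setting there were 3 at 2 reads or more and at 10 reads or more. There were also 3 with a curve fitted on the members alone, a flat expected share, Csp6I fragments, even fragments, or neighbouring detected fragments counted as 1. Shifted bins gave 4, and the remaining alternatives gave 2. Contacted bins of 0.5 Mb numbered 9 to 13, and 8 or more of the 10 were called in each of the 12 alternatives with the same bins. Low bins numbered 24 to 33, and contacted 1 Mb bins 5 to 10. With a curve fitted on the members alone, without the other side of the bait, there were 25 low bins against 31. A flat expected share, chosen after seeing the data because the curve first goes up with distance, gave 12 contacted bins, 26 low bins and 2.71 for the 32 to 33 Mb bin. The Spearman correlation with gene starts was 0.560, and that with GC content 0.509, with a curve fitted on the members alone. That with GC content was 0.587 with Csp6I fragments and 0.577 with even fragments.

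Of the detected members 30.6% had under 10 reads, the number of ligations behind a count is unknown, and there is 1 library. The curve gave 18.4 to 29.6 detected fragments per bin of 0.5 Mb, so modest ratios are not resolved at this depth. No paired analysis was possible because no groups were compared.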

Other observations

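Reads were also listed on members whose 2 ends both occur more than 1 time in the genome. Of 10859 such fragments 42 were detected (0.387%, 0.286 to 0.522%).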
